A study of Mus musculus with 15 samples.

Results

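Lpl and 7 further genes of fatty acid uptake, storage and release (Cd36, Fabp4, Fabp5, Pparg, Plin2, Pnpla2 and Mgll) were followed in RNA-seq of MLL-ENL–transformed mouse fetal liver cells, a tissue culture model of myeloid leukemia. The members were chosen by symbol with the dKO results of these libraries already known. All 8 were found among the 53379 gene rows of the table, and 6 of them had the 10 normalized reads in 3 libraries that a test required, as did 12673 genes in all. Cd36 and Fabp4 did not reach that level and are given as read counts only. There were 15 libraries in 5 groups of 3. WT cells carried floxed Cebpa and Cebpb alleles, dKO cells had lost both genes, and dKO-LAP* cells were dKO cells that also expressed the rat C/EBPβ isoform LAP*. WT and dKO cells were each profiled for 2 clones, C1 and C2, which came from different mice, and dKO-LAP* cells for C1 alone.

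All lines carried the MLL-ENL retrovirus and grew in IMDM with 10% FCS and 10 ng/ml IL-3. The dKO and dKO-LAP* cells also carried a GFP vector, which the labels do not list for WT cells, so vector and genotype cannot be told apart. Each dKO line was a single clone that had survived TAT-Cre treatment, a Cre protein that enters cells, and a clone's own history cannot be told apart from its mouse. The 3 libraries of a group were RNA isolations from 1 line at different times. The p-values below therefore measure the spread of a line over time, not that between independently derived lines. In these bulk libraries fewer expressing cells and less RNA per cell cannot be told apart.

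Lipoprotein lipase, the product of Lpl, splits the triglycerides of circulating lipoproteins and so frees fatty acids at the cell surface. It is made by fat, muscle and heart, and by macrophages. CD36 takes fatty acids up at the membrane, and the fatty acid–binding proteins FABP4 and FABP5 carry them inside the cell. The nuclear receptor PPARγ binds fatty acid derivatives and, together with RXR, switches on genes of uptake and storage, and in fat cells it works beside C/EBPα. Perilipin 2 (Plin2) coats lipid droplets. Adipose triglyceride lipase (Pnpla2) makes the first cut of stored triglyceride, and monoacylglycerol lipase (Mgll) makes the last.

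The libraries held between 9212237 and 13613500 reads on genes. Both deleted genes were at 0 reads in all 6 dKO libraries, against 903 to 2267 normalized reads of Cebpa and 1353 to 1634 of Cebpb in WT libraries. Cebpb reads returned in dKO-LAP* libraries (2538, 2564 and 4216 normalized reads), where transcripts of the rat sequence can align to the mouse gene. Cebpe, a further C/EBP family member, was 5.17-fold higher in dKO than in WT cells of C1 and 4.29-fold higher in C2 (limma, adjusted p = 8e-11 and 3.6e-10). All 9 myeloid progenitor markers were above the floor of 3 reads per library in every group. Of 7 adipocyte markers, 5 or 6 were at or below that floor in each group, and all 5 endothelial markers were. The cells thus had the label's myeloid markers and hardly any of fat or endothelial cells. Markers of muscle and heart were not examined, and macrophage markers, some of which were read, are given further below. Of 5 hepatocyte markers, 3 (Alb, Apoa1 and Ttr) had no read in any library. The other 2 were read: Afp fell in dKO cells of both clones (log2 difference -1.80 in C1 and -0.69 in C2) and Trf in C2 (-2.11), with group means of at most 130 normalized reads.

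Lpl (chr8:68880491-68907448 in mm10, plus strand) was the member with the widest range. The WT libraries of C1 held 2003, 3503 and 1497 normalized reads, and the dKO libraries of C1 14.7, 18.9 and 31.8. In C2 the WT libraries held 493, 458 and 691, and the dKO libraries 1.05, 0 and 0, which is 1 read in all. WT and dKO cells did not overlap in either clone. The mean was 107-fold lower in C1 dKO cells (2334 ± 1043 against 21.8 ± 8.89, mean ± SD, n = 3), a difference of -6.66 on the log2(normalized reads + 1) scale (SE 0.45). In C2, where dKO cells were below 3 reads per library, it was at least 177-fold lower. Because the gene was chosen for this contrast, these differences are a description and carry no test.

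Between the WT lines, the Lpl mean was 4.27-fold lower in C2 than in C1 (log2 difference -2.02, SE 0.45, adjusted p = 0.002, limma). Replicate 2 of C1 WT cells stood at 3503 normalized reads, and the C1 WT group had an SD of 1043, so the size of the gap between the WT lines is known less well than its direction. In order of their means the groups ran from C1 WT through C2 WT, C1 dKO-LAP* and C1 dKO to C2 dKO cells. Only the neighbours C1 dKO-LAP* and C1 dKO overlapped. A share of 0.868% of the 76-base windows of the Lpl exons also occurred in other genes, the highest share but one among the members.

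**Figure D1:**
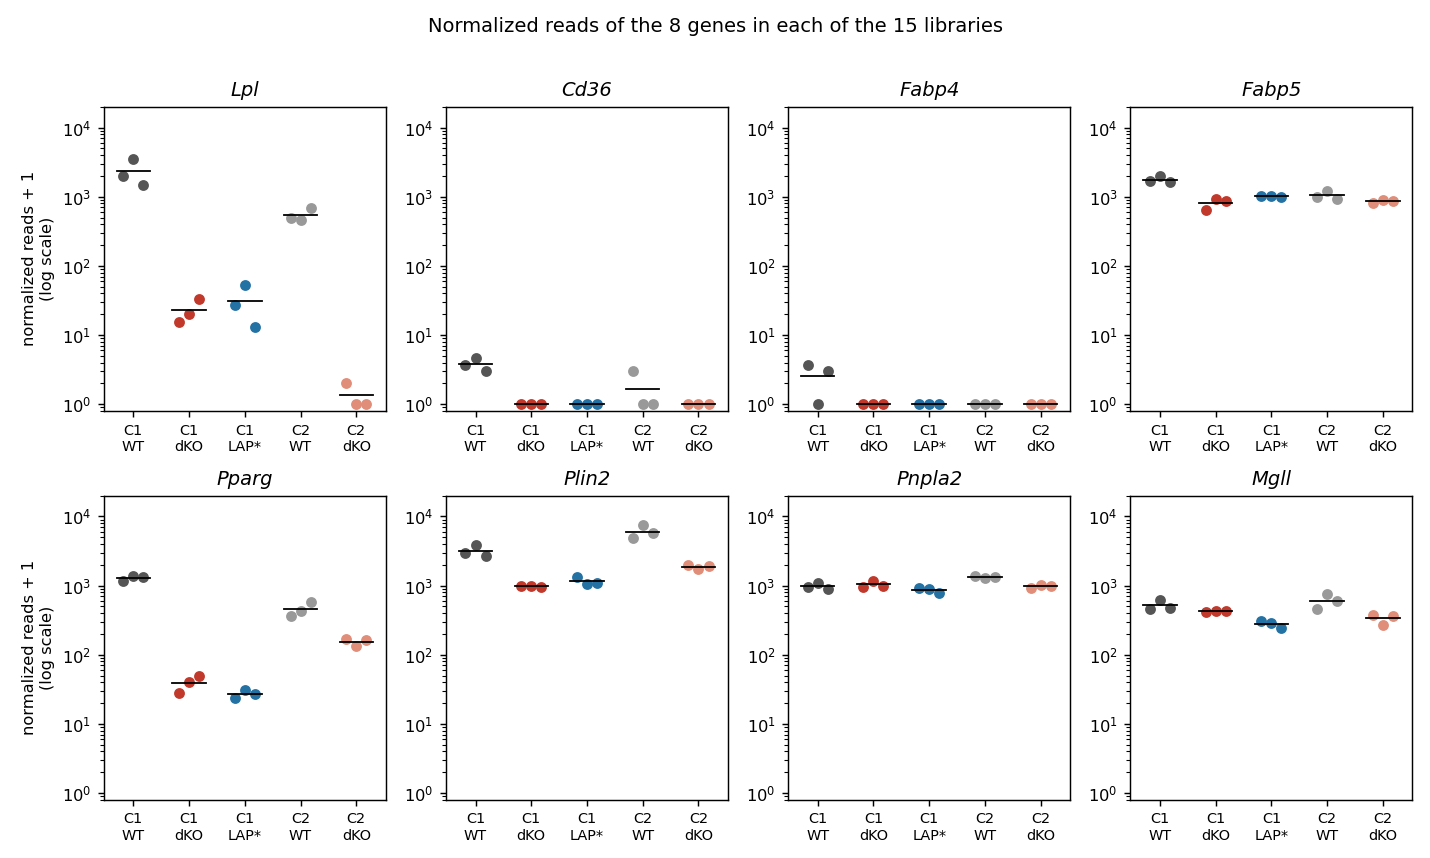
Normalized reads + 1 on a log scale for each of the 8 genes in each library, by clone and group; points are libraries and the line is the group mean (n = 3). Lpl falls from 1497 to 3503 in C1 WT libraries to between 14.7 and 31.8 in C1 dKO libraries and to 1 read in C2 dKO libraries, while Cd36 and Fabp4 stay at or near 0 throughout.

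The uptake and binding proteins divided into genes that were hardly read and a gene that was abundant. Cd36 (chr5:17781690-17888801, minus strand) had 2, 4 and 2 reads in the WT libraries of C1, or 2.68, 3.61 and 2.04 normalized reads. It had 1.99, 0 and 0 normalized reads in those of C2 and none in any dKO or dKO-LAP* library. Fabp4 (chr3:10204088-10208576, minus strand) had 2, 0 and 2 reads in C1 WT libraries and none in the other 12. These counts lie at or near 3 reads per library, so the size of a difference could not be measured at this depth. The C1 WT libraries of Cd36 lay above those of C1 dKO and dKO-LAP* cells without overlap, and the Fabp4 groups overlapped. No fold is given for either gene.

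Fabp5 (chr3:10012548-10016607, plus strand) was read in every library. The C1 WT libraries held 1664, 2019 and 1617 normalized reads and the C1 dKO libraries 633, 942 and 858. The C2 WT libraries held 1005, 1213 and 933 and the C2 dKO libraries 803, 906 and 865. In both clones all dKO libraries lay below all WT libraries, but by different amounts. The mean was 2.18-fold lower in C1 (log2 difference -1.14, SE 0.13) and 1.22-fold lower in C2 (-0.28, SE 0.13). The C1 dKO and C2 dKO libraries overlapped, and the WT mean of C2 was 1.68-fold below that of C1 (log2 difference -0.75, adjusted p = 0.00023). Reads on 2.97% of the 76-base windows of Fabp5 could also come from Gm6166 or Gm14328, and how far this shifts its level was not tested.

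Pparg (chr6:115360951-115490399, plus strand), the transcription factor of the group, had 1147, 1356 and 1339 normalized reads in C1 WT libraries. The C1 dKO libraries held 27.2, 38.8 and 47.7. In C2 the WT libraries held 362, 430 and 571 and the dKO libraries 168, 134 and 161. Both dKO lines were thus below their WT line without overlap, and C2 dKO cells kept more Pparg than C1 dKO cells although C2 WT cells had less than C1 WT cells. The mean was 33.8-fold lower in C1 (log2 difference -5.07, SE 0.20) and 2.94-fold lower in C2 (-1.53, SE 0.20). Gm44079 overlaps Pparg in the annotation.

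RefSeq's promoter table (GRCm38.p6, the sequence of mm10) had 8 windows for 5 of the 8 genes. It lists 3 starts for Pparg, called a, b and c here, of which c is the start of the form made in fat cells, and the gene counts do not separate them. The 250 bases before each Pparg start are shown because Pparg differed most between the clones, and those before the Plin2 start because Plin2 was lower by nearly the same amount in both. Plin2 is on the minus strand and its window is given 5′ to 3′ in the direction of transcription. Capitals mark matches on either strand to the C/EBP motif TTGCNNAA or to the PPAR half-site AGGTCA.
Pparg start a, chr6:115360894-115361143: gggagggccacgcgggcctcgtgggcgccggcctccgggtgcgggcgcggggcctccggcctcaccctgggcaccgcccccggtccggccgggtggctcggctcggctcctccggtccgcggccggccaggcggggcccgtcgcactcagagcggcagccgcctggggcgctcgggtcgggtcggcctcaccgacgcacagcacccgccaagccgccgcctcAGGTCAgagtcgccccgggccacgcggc
Pparg start b, chr6:115362099-115362348: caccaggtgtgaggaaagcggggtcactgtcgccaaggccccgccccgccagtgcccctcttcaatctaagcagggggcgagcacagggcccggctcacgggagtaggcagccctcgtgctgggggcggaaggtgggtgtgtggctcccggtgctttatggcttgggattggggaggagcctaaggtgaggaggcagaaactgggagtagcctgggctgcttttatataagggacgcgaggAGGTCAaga
Pparg start c, chr6:115421816-115422065: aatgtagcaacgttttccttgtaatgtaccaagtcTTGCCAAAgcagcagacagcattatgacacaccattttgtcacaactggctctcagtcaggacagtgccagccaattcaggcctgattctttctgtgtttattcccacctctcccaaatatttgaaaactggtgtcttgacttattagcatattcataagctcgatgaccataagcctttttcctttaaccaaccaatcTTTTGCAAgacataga
Plin2 start, chr4:86670060-86670309: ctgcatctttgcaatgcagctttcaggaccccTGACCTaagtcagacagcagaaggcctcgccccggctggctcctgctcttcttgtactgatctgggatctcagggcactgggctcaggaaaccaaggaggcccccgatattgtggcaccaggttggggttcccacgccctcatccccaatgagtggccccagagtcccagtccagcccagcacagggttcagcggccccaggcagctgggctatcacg
The window of Pparg start c held 2 matches to TTGCNNAA, which begin 215 and 16 bases before the start, and it was the only 1 of the 8 windows with a match. Of all 32851 windows of this length, 9.56% held this motif. AGGTCA matched 28 bases before Pparg start a, 9 bases before start b, 218 bases before the Plin2 start and 228 bases before the Cd36 start, or in 4 of the 8 windows, and in 14% of all windows. The motifs did not overlap each other in these windows, and a match of letters says nothing about binding in these cells.

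Plin2 (chr4:86648386-86670060, minus strand) had the most even difference between dKO and WT cells over the 2 clones among the tested members. The C1 WT libraries held 2933, 3858 and 2665 normalized reads and the C1 dKO libraries 972, 979 and 966. The C2 WT libraries held 4804, 7433 and 5842 and the C2 dKO libraries 1965, 1717 and 1934. The mean was lower by nearly the same factor in both clones, 3.24-fold in C1 (log2 difference -1.68, SE 0.15) and 3.22-fold in C2 (-1.67, SE 0.15), and no WT library overlapped a dKO library. C2 WT cells had 1.91-fold more Plin2 than C1 WT cells (log2 difference 0.93, adjusted p = 0.00011), the reverse of Lpl, Pparg and Fabp5. As a result C2 dKO cells, at 1872 ± 135, still lay above C1 dKO cells, at 972 ± 6.55. Reads on 0.801% of its windows are shared with Gm12551.

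The lipases of stored fat spanned a narrower range. Pnpla2 (chr7:141455198-141460743, plus strand) had 966, 1098 and 889 normalized reads in C1 WT libraries and 964, 1174 and 985 in C1 dKO libraries, which overlap. In C2 the WT libraries held 1395, 1266 and 1318 and the dKO libraries 909, 1019 and 988. The log2 difference was 0.08 in C1 (SE 0.10, 95% interval -0.12 to 0.29) and -0.45 in C2 (SE 0.10), a 1.36-fold lower mean. Mgll (chr6:88724412-88828360, plus strand) had 460, 624 and 473 in C1 WT libraries, 413, 430 and 432 in C1 dKO libraries, 459, 758 and 602 in C2 WT libraries and 378, 272 and 359 in C2 dKO libraries. Its log2 difference was -0.27 in C1 (SE 0.17) and -0.83 in C2 (SE 0.17). Mgll overlaps 5 other annotated genes, and for 0.345% of its windows reads could come from Gm26588.

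Per kilobase of the merged exons of all annotated transcripts, Plin2 was highest in WT cells of both clones, with 897 ± 178 normalized reads per kb in C1 and 1716 ± 377 in C2. In C1 it was followed by Fabp5 (495 ± 61.6), Pparg (434 ± 39.3), Pnpla2 (326 ± 35), Lpl (223 ± 99.6) and Mgll (102 ± 18). In C2 the order was Pnpla2 (439 ± 21.6), Fabp5 (294 ± 40.8), Pparg (154 ± 36), Mgll (119 ± 29.5) and Lpl (52.2 ± 12). Merged exons can be much longer than the transcript in use (3567 of the 4060 bases of Fabp5 and 10478 bases for Lpl), which lowers the value per kb, so this order depends on the annotation.

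With the threshold used for all genes, an adjusted p under 0.05, 4 of the 6 tested members were lower in C1 dKO cells (Lpl, Fabp5, Pparg and Plin2), where 19.9% of all genes tested were lower. In C2 there were 5, all but Fabp5, against 20.1% of all genes tested. All dKO libraries lay below all WT libraries for 5 of the 6 in C1 and for 6 of 6 in C2, against 23.5% and 27.8% of all genes tested. In neither clone was a member higher. Lpl, Pparg and Plin2 were lower in both clones. The median log2 difference of the 6 members was -1.41 in C1 and -1.18 in C2, and that of all genes tested -0.01 and -0.03. Setting Lpl to its bound in C2 leaves the median as it is. Since the members were picked with these contrasts known, these counts are given as a description.

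**Figure D2:**
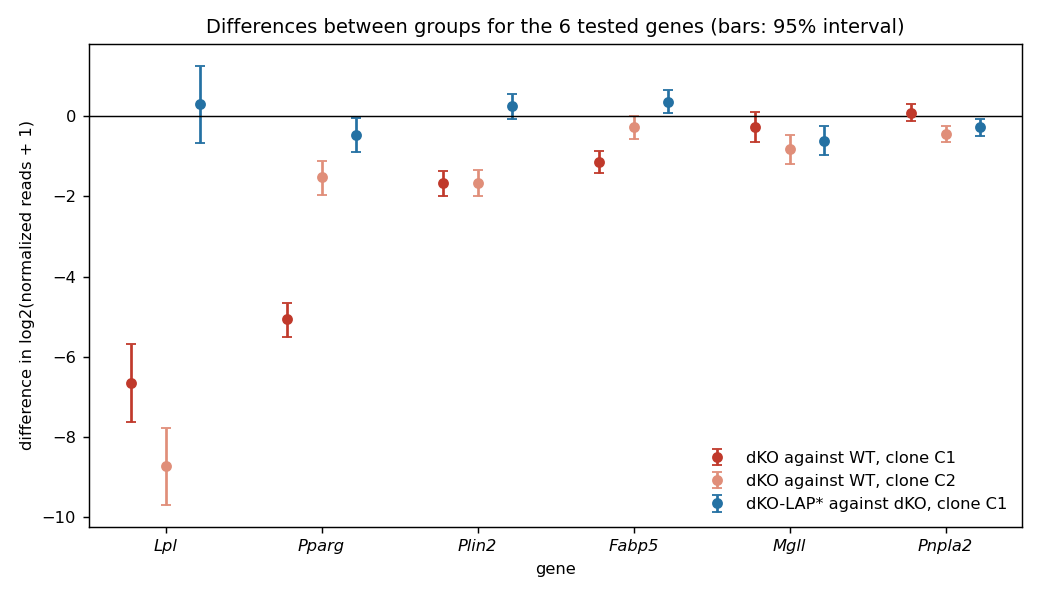
Difference in log2(normalized reads + 1) for the 6 tested genes, with 95% intervals from the limma fit, for dKO against WT cells in each clone and for dKO-LAP* against dKO cells. The dKO differences reach -6.66 for Lpl and -5.07 for Pparg in C1, while the dKO-LAP* differences of all 6 genes lie between -0.61 and 0.36; the C2 value of Lpl depends on the pseudocount because C2 dKO cells are below 3 reads per library.

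Expression of LAP* in C1 dKO cells asked whether a C/EBPβ isoform brought these genes back. The C1 dKO libraries are shared with the dKO contrast on which the members were chosen, so the member values with LAP* are a description. The dKO-LAP* libraries held 26.4, 51.6 and 11.9 normalized reads of Lpl, which overlap the C1 dKO libraries. The log2 difference was 0.29 (95% interval -0.68 to 1.25, adjusted p = 0.81, limma), and without replicate 2 of dKO-LAP* cells it was -0.21. Pparg had 22.4, 30.4 and 26.4 normalized reads, with a log2 difference of -0.48 (interval -0.90 to -0.05, adjusted p = 0.21). Neither gene thus approached its WT level.

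Fabp5 (1035, 1036 and 1005 normalized reads) and Plin2 (1351, 1044 and 1078) lay above all C1 dKO libraries in each dKO-LAP* library. Their log2 differences were 0.36 (SE 0.13, adjusted p = 0.15) and 0.24 (interval -0.07 to 0.56, adjusted p = 0.42). Pnpla2 (908, 888 and 772) and Mgll (311, 286 and 242) lay below all C1 dKO libraries. Their log2 differences were -0.28 (SE 0.10, adjusted p = 0.12) and -0.61 (SE 0.17, adjusted p = 0.056). None of the 6 members passed the threshold with limma, where 4.46% of all genes did, and 4 had an unadjusted p under 0.05 (Fabp5, Pparg, Pnpla2 and Mgll), as did 17.9% of all genes tested. DESeq2 called 1, Mgll (adjusted p = 0.02), and edgeR 0. The shares of all genes tested that DESeq2 and edgeR called were not counted. Among all genes tested, 24.1% had groups that did not overlap, against 4 of these 6.

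Set against WT cells of C1, 5 of the 6 members were lower in dKO-LAP* cells, as were 18.3% of all genes tested. This contrast and the previous one share the dKO-LAP* libraries, and it shares the WT libraries with the dKO contrast on which the members were chosen, so its values are a description as well. Lpl was 77.9-fold below WT (log2 difference -6.37, SE 0.45) and Pparg 48.5-fold (-5.55, SE 0.20). Plin2 was 2.72-fold below (log2 difference -1.44), Mgll 1.86-fold (-0.88) and Fabp5 1.72-fold (-0.78). For Pnpla2, whose groups overlapped, the log2 difference was -0.20 (95% interval -0.41 to 0.01).

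The dKO effect itself was then compared between the clones, in the same libraries on which the members were chosen, by the difference of the log2 differences (C2 minus C1), which passed the threshold for 4 of 6 members and for 29.4% of all genes tested. For Pparg it was 3.54 (SE 0.28, adjusted p = 3e-07), the smaller loss being in C2. For Fabp5 it was 0.85 (SE 0.19, adjusted p = 0.0025), also smaller in C2. For Pnpla2 it was -0.53 (SE 0.14, adjusted p = 0.0082), the dKO mean being below WT in C2 and the groups overlapping in C1. These 3 kept the call under all 8 alternatives and without any 1 of the 12 libraries.

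For Lpl the difference was -2.07 (SE 0.64, adjusted p = 0.023), but it rests on C2 dKO libraries with 1 read in all. It was -0.27 (adjusted p = 0.76) with a pseudocount of 5 and -3.50 (adjusted p = 0.17) with edgeR, and the other 6 of 8 alternatives kept the call, over a range of -4.50 to -0.27 in all 8. It also lost the call without replicate 1 or 3 of C1 WT, replicate 3 of C1 dKO, replicate 3 of C2 WT or replicate 2 or 3 of C2 dKO cells, with adjusted p-values up to 0.064. Plin2 (0.01, 95% interval -0.44 to 0.46, adjusted p = 0.97) and Mgll (-0.56, SE 0.24, adjusted p = 0.098) did not pass. Mgll did pass without replicate 2 of C1 WT (adjusted p = 0.042) or replicate 1 of C2 WT cells (0.022). For Plin2 the interval leaves room for a difference of 0.46 on the log2 scale in the 2 effects.

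Between the WT lines, 5 of the 6 members differed, as did 41% of all genes tested. Lpl, Fabp5 and Pparg were lower in C2, the last 2.82-fold (log2 difference -1.51, adjusted p = 1.5e-05). Plin2 and Pnpla2 were higher in C2, the latter 1.35-fold (0.43, adjusted p = 0.0019). Mgll did not pass (0.21, adjusted p = 0.36). The WT lines thus differed in the levels of 5 of these genes, and these WT libraries also enter the dKO effects above. Whether the dKO clones started from these levels was not measured, as the paper pooled partly deleted clones before the last Cre treatment.

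Over the 15 libraries the members' log2 levels had Pearson correlations between 0.03 (Fabp5 and Pnpla2) and 0.82 (Pparg and Plin2). Libraries of a group share line, genotype and vector, so these values mainly carry the differences between the 5 groups. After the group means were taken out, Pparg and Plin2 had a correlation of 0.07, Plin2 and Mgll had 0.89, and Lpl and Pparg had 0.53. Plin2 and Mgll were both highest in replicate 2 of the WT cells in each clone.

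The genes whose log2 level was most like that of Lpl over these libraries were Hpse (heparanase, Pearson r = 0.975), Upp1 (uridine phosphorylase, 0.974), Aldh3b1 (an aldehyde dehydrogenase, 0.971), Pcyox1 (prenylcysteine oxidase, 0.968) and Gbp3 (a guanylate-binding protein, 0.967). Hpse ran from 740 ± 287 normalized reads in C1 WT cells to 48.5 ± 18.7 in C1 dKO and from 250 ± 52.3 in C2 WT to 16.8 ± 4.68 in C2 dKO cells. Gbp3 ran from 700 ± 351 to 34.7 ± 11.4 in C1 and from 244 ± 59.3 to 13.5 ± 4.06 in C2. Pcyox1 was far more even, from 3145 ± 60.4 to 1434 ± 47.4 in C1 and from 2224 ± 41.6 to 1022 ± 99.7 in C2. All 5 were highest in C1 WT and lower in dKO cells of both clones, as Lpl was. They were picked for likeness to Lpl in these same libraries, so the shared order is no separate result.

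The rest of fatty acid handling was covered by 8 lists with 117 genes, of which 89 were tested. In C1 dKO cells 13 of the 89 rose and 38 fell, where 17.1% and 19.9% of all genes tested did, and their median log2 difference was -0.27. In C2 14 rose and 32 fell, where 17.4% and 20.1% of all genes tested did, and the median was -0.17. In both clones together 20 genes (22.5%) fell in each, 6 (6.74%) rose in each and 3 (3.37%) moved in opposite directions. Over all genes tested these shares were 8.36%, 5.69% and 4.1%.

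**Figure D3:**
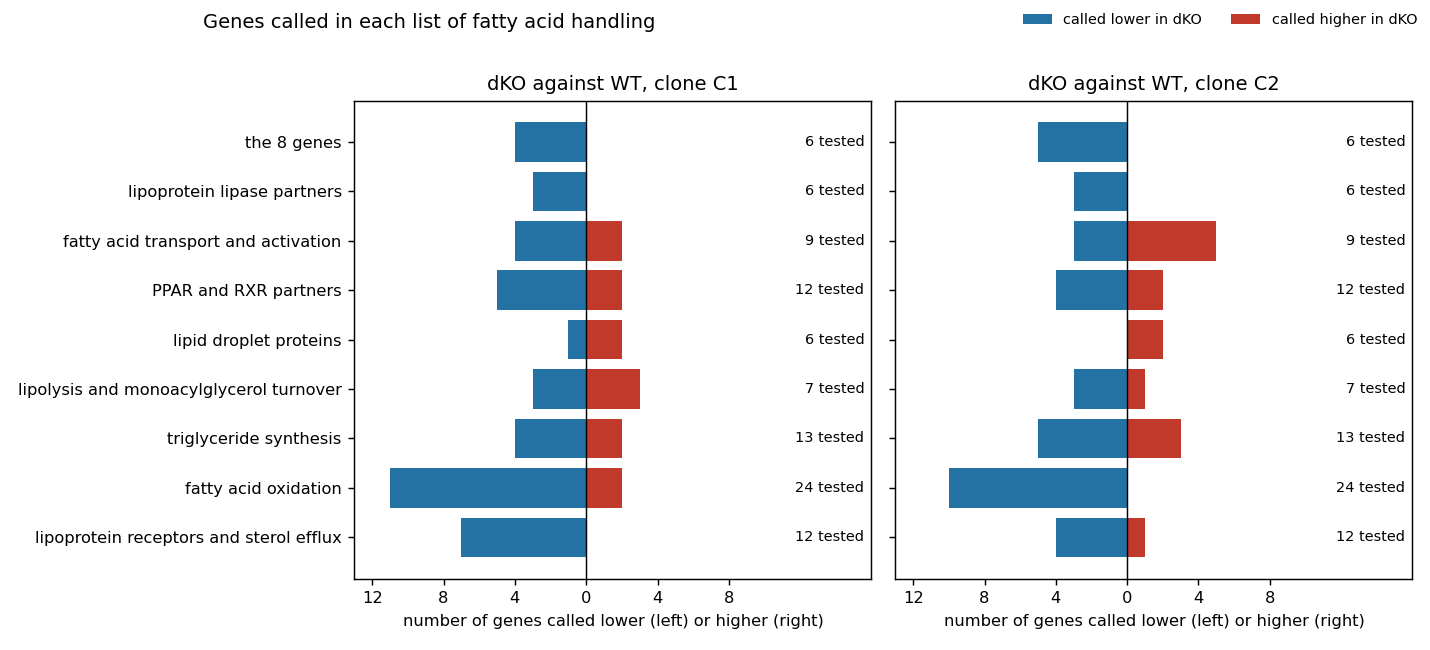
Number of genes called lower (left) or higher (right) in dKO than in WT cells of each clone at an adjusted p under 0.05, for the 8 followed genes and each of 8 lists of fatty acid handling, with the number tested. Fatty acid oxidation has the most calls, 11 lower of 24 tested in C1 and 10 in C2.

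Of the partners of lipoprotein lipase, 3 of 6 tested fell in C1 and 3 in C2, and none rose. Gpihbp1, which anchors the enzyme to the vessel wall, had no read in any library. Lipg, the endothelial lipase, is a relative that acts on lipoprotein phospholipids. It had 244, 437 and 200 normalized reads in C1 WT and 48.7, 37.8 and 32.6 in C1 dKO libraries, and 5868, 5636 and 4862 in C2 WT and 704, 434 and 357 in C2 dKO libraries. Lipg fell 7.39-fold in C1 and 10.9-fold in C2 (adjusted p = 2.5e-06 and 2.7e-07). Its WT levels were the reverse of those of Lpl, which was higher in C1.

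Of the genes of fatty acid transport and activation, 2 rose and 4 fell of 9 tested in C1, and 5 rose and 3 fell in C2. Slc27a1, a membrane fatty acid transporter, fell 7.99-fold in C1 and 2.34-fold in C2 (adjusted p = 4.1e-08 and 0.00031). Slc27a2, a transporter of the same family, was near the floor in C1 WT libraries (1.02 to 2.68 normalized reads) and rose to between 5.66 and 24.7 in C1 dKO libraries (log2 difference 2.37, adjusted p = 0.0021). Its C2 value was 1.43 (adjusted p = 0.043) and stayed past the threshold in 2 of 8 alternatives. Without replicate 2 of C2 WT, or replicate 1 or 3 of C2 dKO cells, the adjusted p was 0.21, 0.15 and 0.1.

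Among partners of PPARγ, 2 of 12 tested rose and 5 fell in C1, and 2 rose and 4 fell in C2. Rxra, an RXR that pairs with PPARγ, had 89.7, 111 and 149 normalized reads in C1 WT and 53.2, 53.5 and 45.9 in C1 dKO libraries. In C2 it had 400, 511 and 492 in WT and 34.5, 24.3 and 35.4 in dKO libraries. It fell 2.29-fold in C1 and 14.9-fold in C2 (adjusted p = 0.00028 and 8.6e-10), so the larger fall was in the clone where the Pparg difference was smaller. The mean of Rxrb, another RXR, was not lower in dKO cells. It was 944 normalized reads in C1 WT and 1162 in C1 dKO cells, and 887 in C2 WT and 976 in C2 dKO cells. Rxrb was named after its values were seen. Ppargc1a, a coactivator, rose from 0 to 3.06 normalized reads in WT libraries to between 4.53 and 11.5 in dKO libraries (adjusted p = 0.018 in C1 and 0.0089 in C2). Its C1 call was lost without replicate 2 of C1 WT (adjusted p = 0.096) or replicate 3 of C1 dKO cells (0.06), with a pseudocount of 0.1 (0.068) and with only the groups compared (0.059), and its C2 call without replicate 1 of C2 WT cells (0.05).

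Of 6 lipid droplet genes tested, 2 rose and 1 fell in C1, and 2 rose and none fell in C2. Cideb, a droplet-associated protein of the CIDE family, rose 3.97-fold in C1 and 2.05-fold in C2 (adjusted p = 0.00019 and 0.011). With only the groups compared, the C2 value of Cideb had an adjusted p of 0.095, and without replicate 1 of C2 WT cells its log2 difference was 0.62, still past the threshold. Bscl2, the gene of seipin, which helps droplets form, rose by a log2 difference of 0.48 and 0.29 (adjusted p = 0.0014 and 0.036). The C2 call of Bscl2 was lost without replicate 1 or 2 of C2 WT or replicate 2 or 3 of C2 dKO cells, with an adjusted p of 0.094, 0.12, 0.12 and 0.098, and with no filter (0.056). No gene of this list, which does not hold Plin2, fell in both clones.

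Of 7 genes of lipolysis and monoacylglycerol turnover, 3 rose and 3 fell in C1, and 1 rose and 3 fell in C2. Abhd5, the coactivator of the lipase encoded by Pnpla2, had 2024, 2188 and 1660 normalized reads in C1 WT and 1181, 1055 and 1142 in C1 dKO libraries. In C2 it had 2721, 3167 and 2878 in WT and 1346, 1183 and 1216 in dKO libraries. It fell 1.74-fold and 2.34-fold (adjusted p = 6.6e-06 and 6.8e-08), while the log2 difference of Pnpla2 itself in C1 was 0.08. Lipa, the lysosomal acid lipase, fell 2.15-fold and 1.83-fold (adjusted p = 3.3e-07 and 4.5e-06). Daglb, which makes the monoacylglycerol that Mgll breaks down, rose 2.11-fold and 1.61-fold (adjusted p = 6.1e-05 and 0.004).

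Of 13 triglyceride synthesis genes, 2 rose and 4 fell in C1, and 3 rose and 5 fell in C2. Mogat2, an acyltransferase that rebuilds diacylglycerol, rose 3.62-fold and 1.75-fold (adjusted p = 1.7e-05 and 0.012). Without replicate 1 or 3 of C2 WT or replicate 1 of C2 dKO cells the C2 value of Mogat2 had an adjusted p of 0.067, 0.051 and 0.053. Agpat3, another acyltransferase, fell 2.26-fold in C1 (adjusted p = 0.016). In C2 it went from 147, 117 and 130 normalized reads to 2.09, 0.97 and 0, at least 42.6-fold lower. The C1 call of Agpat3 was lost without replicate 2 of C1 WT (adjusted p = 0.063) or replicate 1 of C1 dKO cells (0.079), and with a pseudocount of 0.1 (0.24).

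In fatty acid oxidation, 11 of 24 genes tested fell and 2 rose in C1, 10 fell and none rose in C2, and 7 fell in both. Cpt1a, the gate of mitochondrial fatty acid import, fell 2.05-fold and 1.65-fold (adjusted p = 3.6e-06 and 0.00012). Slc25a20, which carries acylcarnitines across the inner membrane, had log2 differences of -0.79 and -0.52, both past the threshold (adjusted p = 0.00039 and 0.009). Without replicate 3 of C2 dKO cells the C2 value of Slc25a20 had an adjusted p of 0.054. Of 12 lipoprotein receptor and sterol efflux genes, 7 fell in C1 and 4 in C2, and 1 rose in C2. Abcg1, a sterol exporter, fell 3.58-fold and 2.32-fold (adjusted p = 5.9e-05 and 0.0023). Abca1, its relative, had 140, 307 and 82.5 normalized reads in C1 WT and 10.2, 16.8 and 9.71 in C1 dKO libraries, a log2 difference of -3.58 (adjusted p = 2e-05) that was -3.08 without replicate 2 of C1 WT cells. In C2 Abca1 had only 3.98, 6.29 and 9.16 normalized reads in WT libraries and 0, 0.97 and 0 in dKO libraries, at least 2.1-fold lower.

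**Figure D4:**
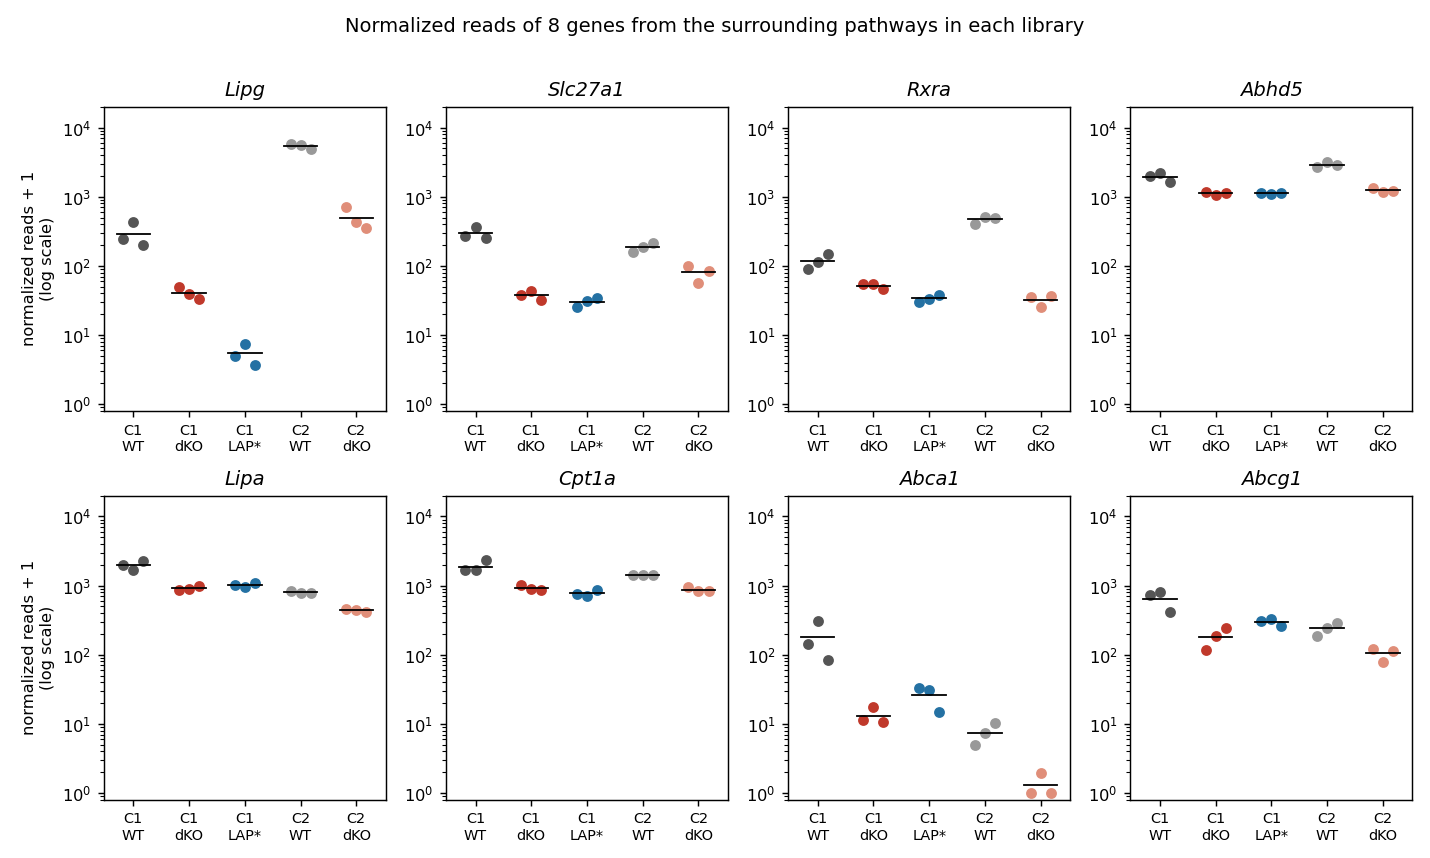
Normalized reads + 1 on a log scale for 8 of the named pathway genes that were lower in dKO cells of both clones, in each library by clone and group, with the group mean as a line (n = 3). In these panels, which leave out the named genes that rose, WT libraries lie above dKO libraries of the same clone, and Lipg is lower again in dKO-LAP* (2.74 to 6.45) than in C1 dKO libraries (32.6 to 48.7).

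With LAP*, 1 of the 89 list genes rose and 5 fell against C1 dKO cells, where 1.43% and 3.03% of all genes tested did. Lipg fell further, to 4.06, 6.45 and 2.74 normalized reads (log2 difference -2.95, SE 0.30, adjusted p = 3.4e-05). Dagla, which makes monoacylglycerol as Daglb does, rose from 29.4, 46.1 and 49.4 to 82.3, 76.5 and 71.1 (log2 difference 0.90, adjusted p = 0.019). That call was lost without replicate 1 of dKO, or replicate 1 or 2 of dKO-LAP* cells (adjusted p = 0.078, 0.059 and 0.062), and with only the groups compared (0.11). Faah, an amide hydrolase of endocannabinoid breakdown, fell from 15.9, 14.7 and 8.83 to 5.08, 1.84 and 0 (adjusted p = 0.018). It lost the call without replicate 1 or 2 of dKO, or replicate 2 or 3 of dKO-LAP* cells (adjusted p = 0.07, 0.077, 0.053 and 0.079), and also with a pseudocount of 0.1 (0.055), only the groups compared (0.13) and edgeR (0.059). Decr1, an enzyme for unsaturated fatty acids, also passed, but both groups were at or below 3 reads per library, and the call was lost with a pseudocount of 5 (adjusted p = 0.068), edgeR (0.06) and DESeq2 (0.094). The remaining calls, named after their values were seen, were Slc27a4 (-0.56, adjusted p = 0.047) and Crat (-0.42, adjusted p = 0.023), and each was past the threshold in only 1 of the 6 fits that left out a library. Slc27a4 kept the call only without replicate 1 of dKO-LAP* cells (0.11 to 0.18 in the other fits) and in 4 of 8 alternatives, and Crat only without replicate 1 of dKO cells (0.051 to 0.11 in the other fits).

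Markers of other cell types moved with the genotype as well. The 10 macrophage markers summed to between 6433 and 8537 normalized reads in C1 WT and between 2710 and 3563 in C1 dKO libraries, and all 6 tested were lower. In C2 the sums were 954 to 1573 in WT and 1425 to 2266 in dKO libraries, with 4 of 6 tested lower and Adgre1 higher. C1qa was below 3 reads per library in every group. The 7 eosinophil, basophil and mast cell markers summed to between 73.4 and 106 in C1 WT, 8798 and 15696 in C1 dKO, 998 and 2010 in dKO-LAP*, 174 and 183 in C2 WT and 1195 and 1615 in C2 dKO libraries. Of the 6 tested, 6 were higher in C1 dKO cells, and in C2 4 were higher and Ms4a2 was lower (log2 difference -2.85). The 9 myeloid progenitor markers summed to between 82387 and 98524 in WT and between 139973 and 198242 in the other libraries. The part of these marker shifts in the levels of Lpl and its partners was not tested.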

How the data were processed

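RNA-seq was analysed for 15 libraries in 5 groups of 3. The authors prepared stranded libraries from mRNA, sequenced 76-nt paired-end reads, aligned them to mm10 with STAR 2.5.3a, counted reads per gene with HTSeq 0.10.0 and normalized with DESeq2 1.26.0. The signal the authors deposited is a normalized read count, scaled by the size factor of each library. Dividing each column by its step gave whole reads (within 0.1) for 100% of its values. The 5 rows that name no gene held 22.4% to 26.2% of reads and were left out, as were 3 columns not matched to a sample. The annotation used for counting and its strand setting are not given in the sources used here, so overlapping genes are uncertain.

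limma 3.58.1 (R 4.3.3) estimated the mean of log2(normalized reads + 1) in each group, with all libraries in 1 fit and the trend option. A filter of 10 or more normalized reads in 3 or more libraries left 12673 of 24520 detected genes. Calls were made at a Benjamini-Hochberg adjusted p under 0.05 over all genes tested, two-sided. Fold changes of low genes are understated on this scale. Folds are ratios of group means, and a group below 3 reads per library was set to that floor, as the mean over the group. The floor covers counting error only. Coordinates and exon lengths are from GENCODE vM21. Alternatives were pseudocounts of 0.1 and 5, no filter, quantile normalization, only the groups compared, a replicate block, edgeR 4.0.16 and DESeq2 1.42.0 on the recovered reads, and leaving out each library. The fits were tested on simulated data. The members, the pathway and marker lists and the tests were chosen with earlier results of these data known. Besides the members, the genes named were up to 2 with the largest mean rise and 2 with the largest mean fall per list among those called alike in both clones without overlap, up to 3 in each direction with LAP*, and the 5 most like Lpl. Genes of the lists that this rule names but the text does not are not reported here.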

Additional observations from a re-analysis of the deposited data

Results flagged for a closer look

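For 4 of the 6 followed genes tested, and 29.4% of all genes tested, the dKO effect differed between the clones. This was a test of the difference itself (C2 minus C1, on the log2 scale), in the libraries on which these genes were chosen. The values were -2.07 for Lpl, 0.85 for Fabp5, 3.54 for Pparg and -0.53 for Pnpla2. That of Lpl rests on 1 read in all C2 dKO libraries and ranged from -4.50 to -0.27 over the 8 alternatives, of which 6 kept the call, and it was lost in 6 of the 12 fits that left out a library (adjusted p up to 0.064). The differences for Pparg, Fabp5 and Pnpla2 held in all 8 alternatives.

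Among the genes named from the pathway lists, the effect was larger in C1 for Slc27a1 (1.71) and larger in C2 for Rxra (-2.71), Abhd5 (-0.44, adjusted p = 0.061 without replicate 2 of C2 WT cells) and Agpat3 (-5.00, where C2 dKO cells are below the floor). The rise of Mogat2 was smaller in C2 (-1.04), a call that held in only 4 of the 12 fits that left out a library, with values from -1.35 to -0.73, and that was lost with only the groups compared (adjusted p = 0.055) and with DESeq2 (0.056). Dagla (-1.20), Slc27a4 (-0.96) and Crat (-0.54) passed the threshold as lower in dKO cells of C2, while their C1 differences (-0.17, 0.28 and 0.11) did not pass. The Decr1 difference was 6.09, since it went from 201, 184 and 226 normalized reads in C1 WT libraries to 1.13, 3.15 and 1.77 in C1 dKO libraries, at least 66.5-fold lower, and was 399, 415 and 379 in C2 WT and 365, 385 and 408 in C2 dKO libraries. All 3 dKO-LAP* libraries, which descend from the C1 dKO clone, had no Decr1 read.

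Acsl1 (1.00), Acsl5 (0.59) and Agpat5 (0.67), the 3 list genes called in opposite directions in the clones, and Angptl4 (1.21), G0s2 (0.92) and Lipe (-0.84) were named after their values were seen.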

How the results depend on the processing

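The followed genes gave few calls that moved with the processing. With dKO-LAP* against dKO cells, 0 of the 6 tested members were lower in the main analysis, and 1 (Mgll) was with only the groups compared (adjusted p = 0.045) and with DESeq2. The list genes called higher there went from 1 to 0 with only the groups compared and ranged from 0 to 1 when a library was left out. Those called lower went from 5 to 3 with a pseudocount of 0.1 and with edgeR and ranged from 2 to 6. The members with a lower dKO effect in C2 than in C1 went from 2 to 1 with a pseudocount of 5 and with edgeR, and ranged from 1 to 3. The cause of these shifts was not tested, except that fewer libraries enter the fits with only the groups compared.

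Values near 0 changed sign. The clone difference of Plin2 was -0.10 with quantile normalization and ranged from -0.14 to 0.17 without a library. The C1 difference of Pnpla2 ranged from -0.01 to 0.16, the dKO-LAP* difference of Lpl from -0.21 to 0.81, and the C2 differences of Angptl4 from -0.04 to 0.06, of G0s2 from -0.06 to 0.08 and of Lipe from -0.07 to 0.10.

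The replicate numbers did not pair the samples. Correlations of same-numbered deviations ran from -0.174 to 0.297 and were not all above 0.1 in any comparison. With a replicate block, the C2 difference of Fabp5 passed the threshold (adjusted p = 0.047), and no other member changed its call. Of the list genes named, Slc27a2 and Acsl5 in C2 (adjusted p = 0.055 and 0.053) and Slc27a4 with LAP* (0.074) lost theirs. Reads below 3 per library limit Cd36, Fabp4 and the C2 dKO value of Lpl.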

Other observations

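Acsl1 and Acsl5, which encode acyl-CoA synthetases that trap incoming fatty acids, moved in opposite directions in the clones. Acsl1 fell in C1 dKO cells by 0.44 on the log2 scale (adjusted p = 0.0013) and rose by 0.55 in C2 (adjusted p = 0.0002). It had 2441, 3383 and 2858 normalized reads in C1 WT and 2086, 2138 and 2098 in C1 dKO libraries, and 1475, 1600 and 1595 in C2 WT and 2247, 2448 and 2166 in C2 dKO libraries. In neither clone did the groups overlap. Acsl5 fell by 0.36 in C1 (adjusted p = 0.0037) and rose by 0.23 in C2 (adjusted p = 0.043), and the C2 call held in 4 of 8 alternatives and in 2 of 6 fits without a library. Agpat5, an acyltransferase, fell by 0.47 in C1 (adjusted p = 5.2e-05) and rose by 0.20 in C2 (adjusted p = 0.031), a C2 call that held in 6 of 8 alternatives and in 1 of 6 fits without a library.

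The regulators of the lipases also differed between the clones. Angptl4, an inhibitor of lipoprotein lipase, had 400, 428 and 648 normalized reads in C1 WT and 190, 239 and 203 in C1 dKO libraries (log2 difference -1.19, adjusted p = 1.3e-05). In C2 it had 269, 306 and 299 in WT and 284, 292 and 310 in dKO libraries (0.02, adjusted p = 0.94). G0s2, the inhibitor of the lipase encoded by Pnpla2, fell in C1 (-0.92, adjusted p = 0.00041) and had a difference of 0.01 in C2 (adjusted p = 0.98). Lipe, hormone-sensitive lipase, rose in C1 (0.84, adjusted p = 1.9e-05) and had a difference of 0.00 in C2 (adjusted p = 0.99).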
